A study of Mus musculus with 14 samples.

Results

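Trisomy of HSA21 causes Down syndrome, and many HSA21 genes have their mouse counterparts together near the end of chromosome 16. Peaks of 8 ChIP-seq lists from mouse embryonic stem (mES) cells were examined around 10 of these genes: the transcription factor genes Sim2, Ets2, Erg, Olig2 and Runx1, the enzyme genes Hlcs, Dyrk1a and Ttc3, and the membrane protein genes Kcnj6 and Dscam. The genes were chosen by name, and every peak whose centre lay within 100 kb of a gene body in the mm9 build of the mouse genome (GENCODE vM1 annotation) was taken. This gave 19 of the 24416 peaks of all 8 lists. Of the 10 genes, 8 had a peak within 100 kb, and in each of the 8 a NANOG peak was among them. Of all protein-coding genes, 70.6% had a peak of any list. The 10 genes include 8 with a body of at least 50 kb, and 6 of those had a peak (75.0%), against 82.3% of all genes of that length. A SIM2 peak was found at a single gene, Erg, in an intron, at a position that was also occupied by NANOG and OCT4. A SIM2 peak of any clone was near 28.7% of all protein-coding genes. No peak of any list lay within 100 kb of Runx1 or Dyrk1a, and 29.4% of all protein-coding genes had none. The Mediator subunits MED1 and MED12 had no peak within 100 kb of any of the 10 genes. Their lists are sparse, with a MED1 peak near 7.98% of all protein-coding genes and a MED12 peak near 10.9%.

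The study placed a FLAG-tagged mouse Sim2 transgene in a ROSA-TET system, in which removal of tetracycline from the medium switches the transgene on from a modified human CMV promoter, together with a Venus fluorescence marker. FLAG ChIP was performed after 26 h without tetracycline, in 3 clones with this transgene (A6, B8, C4) and, as a control, in their EB3 parental line, which lacks Sim2-FLAG. NANOG, OCT4, MED1 and MED12 ChIP was performed in clone A6 under the same induction. Each line is 1 clone and each ChIP is 1 library, 8 in all, with 6 inputs. NANOG and OCT4 peaks were called against 1 shared input and MED1 and MED12 peaks against another, and only the SIM2 ChIP has replicates, 1 from each clone. SOX2 ChIP was not analysed here. The factor lists come from cells with the transgene on, and the SIM2 measured is the tagged transgene product, not the product of the Sim2 gene on chromosome 16.

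SIM2 is a basic helix-loop-helix PAS transcription factor that pairs with ARNT and recognises elements with the core ACGTG. NANOG and OCT4 maintain the pluripotent state of ES cells and often bind the same enhancers, where OCT4 works with SOX2. Mediator is the complex that connects enhancer-bound factors with RNA polymerase, and it accumulates at the enhancers of strongly expressed cell identity genes. Most of the 10 genes are known for roles outside the pluripotent state: Olig2 specifies motor neurons and oligodendrocytes, Runx1 is needed for definitive blood formation, Erg acts in endothelium and blood stem cells, and Dscam and Kcnj6 act in neurons. Expression was not measured in the files used here.

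The DNA at 3 of the peaks is shown because these are the only SIM2-bound position, the locus where OCT4 and NANOG coincided without SIM2, and the only peak near the 10 genes that held the SIM2 core. Sequences are the forward strand of mm9, read 5′ to 3′. Capitals mark a SOX-like string at Erg, a NANOG-like string at Olig2 and the palindrome that holds the SIM2 core at Sim2.
Erg intron, SIM2 peak of clone A6, chr16:95765237-95765389: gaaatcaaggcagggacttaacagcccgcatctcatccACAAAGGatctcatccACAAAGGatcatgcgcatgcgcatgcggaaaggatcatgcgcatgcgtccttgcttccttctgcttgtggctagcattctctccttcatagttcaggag
Upstream of Olig2, NANOG peak, chr16:91181379-91181545: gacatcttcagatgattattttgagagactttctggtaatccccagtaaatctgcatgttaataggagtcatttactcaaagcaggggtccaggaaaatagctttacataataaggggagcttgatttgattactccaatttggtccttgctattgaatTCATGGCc
Upstream of Sim2, NANOG peak, chr16:94003983-94004149: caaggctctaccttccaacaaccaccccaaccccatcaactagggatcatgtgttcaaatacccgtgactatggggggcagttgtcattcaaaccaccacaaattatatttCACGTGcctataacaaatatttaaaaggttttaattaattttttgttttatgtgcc

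The values reported for a peak are those of the authors' peak caller, HOMER. The score was taken as a number of tags: it lay within 1 of the total tags in 86.8% of the peaks of the 5 lists whose total tags are whole counts, while in A6, EB3 and OCT4 the total tags are not whole and this could not be checked. The 95% interval of a score is an exact Poisson interval that covers counting error only. At the A6 and OCT4 peaks described below the score was above the total tags, and their intervals hold only if the score is a tag number. The normalized tag count is scaled to 10 M tags (M, megatags) and was compared only within a list, as the percentile of the peak in its own list. The fold is the enrichment over the input. The depth is known only within about a factor of 2. If 1 step between normalized tag counts is 1 tag, the libraries held 12.9 to 31.6 M tags, and if the score is the tag number behind the normalized count they held 24.0 to 62.7 M. The lists differed in length from 81 peaks (EB3) to 14815 peaks (NANOG), so an absent peak means that none was called at that depth.

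The 10 genes differ in length, and a longer gene has a longer window. Dscam had the longest body, 579 kb, which is longer than 99.4% of protein-coding genes, and Olig2 the shortest, 3.13 kb. Of the 10 genes, 8 had a body of at least 50 kb, and for this reason the share of all protein-coding genes with a peak is given below together with the share of those with a body of at least 50 kb. The windows of neighbouring genes overlapped, so that they formed 5 blocks of 3.3 Mb in all, and 3 NANOG peaks lay in the windows of a pair of genes.

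**Figure D1:**
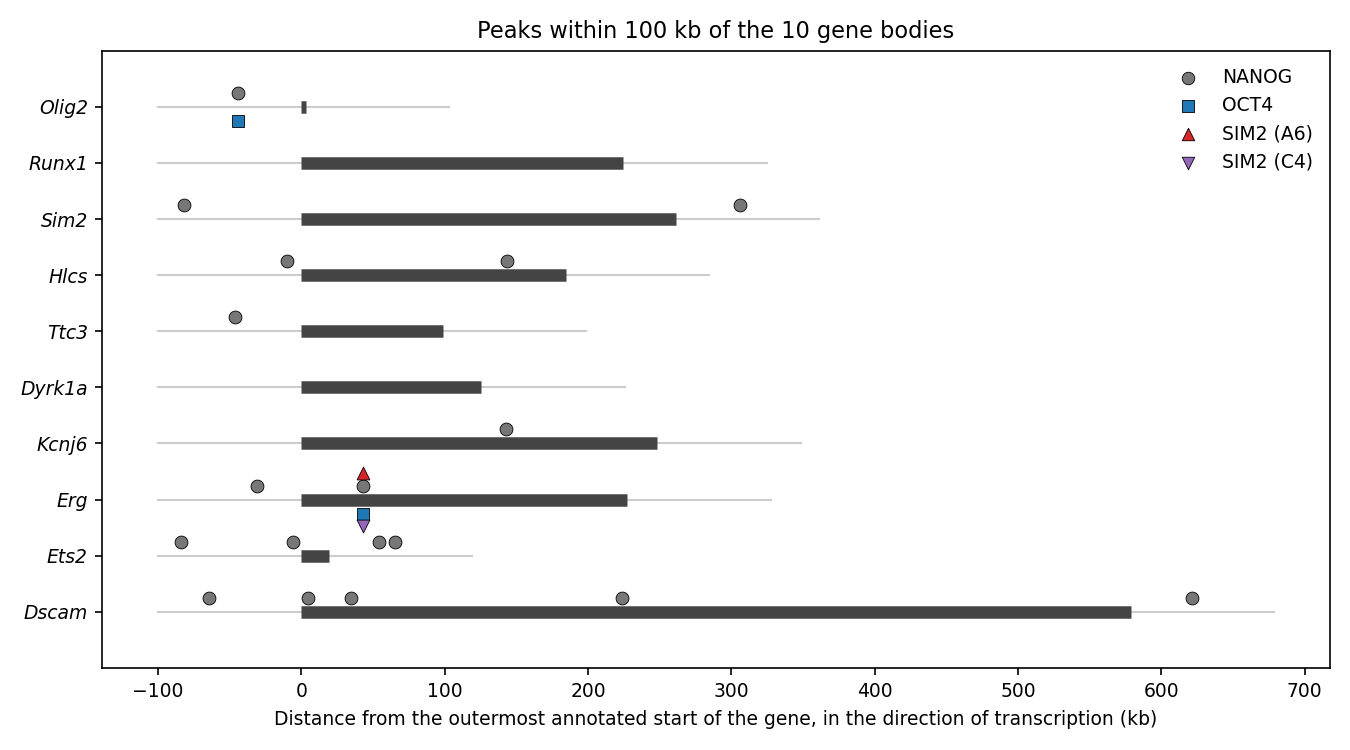
Position of the 19 peaks around the 10 genes, as distance in kb from the outermost annotated start in the direction of transcription (x axis), with 1 row per gene. Thick bars are gene bodies, thin lines the 100 kb on each side and symbols the peaks of each list, and a peak in the windows of a pair of genes is drawn in both rows. The rows of Runx1 and Dyrk1a are empty, and the SIM2 symbols are found only in the Erg row.

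NANOG peaks were found near 8 of the 10 genes, whereas 67.6% of the 22367 protein-coding genes had one. Of the 8 members with a body of at least 50 kb, 6 had one (75.0%), against 79.9% of the 4841 such genes. OCT4 peaks were found near 2 of the 10 genes (background 21.8%), and near 1 of the 8 long members (12.5%, against 29.6% of the long genes). SIM2 peaks of A6 were found near 1 gene (background 23.0%, long genes 30.0%), those of C4 near 1 gene (6.06%, long genes 8.55%) and those of B8 near none (19.8%, long genes 26.5%). A SIM2 site of at least 2 clones was near 1 gene, where the background was 13.4%, or 18.2% of the long genes. In each case the gene was Erg, 1 of the 8 long members (12.5%). MED1 peaks were near none of the 10 (7.98%, long genes 8.72%), nor were MED12 peaks (10.9%, long genes 13.2%) or FLAG peaks of EB3 (1.14%). A SIM2 peak of any clone was near 1 of the 10 genes, Erg, where the background was 28.7%, or 36.9% of the long genes. Among long genes the share of the members was below the background for every list except C4. For NANOG it stood near the background, whereas for A6, B8 and OCT4 it was clearly lower. These differences were not tested, and with 10 genes no count is taken to set them apart.

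**Figure D2:**
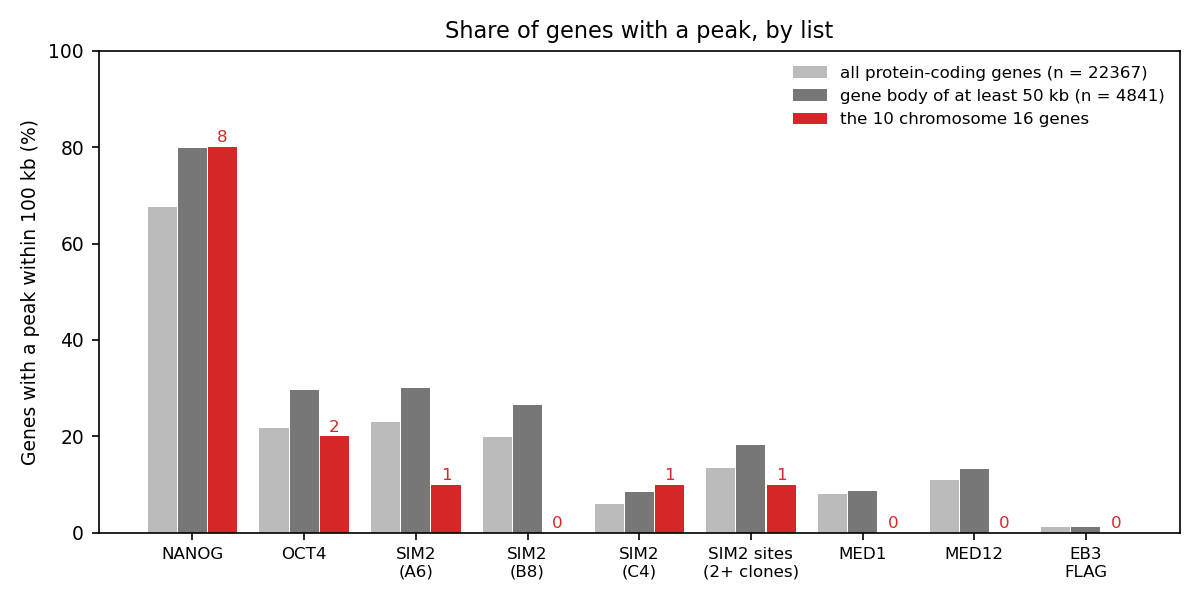
Share of genes with a peak within 100 kb of the gene body (y axis, %) for each list (x axis), for all protein-coding genes, those with a body of at least 50 kb and the 10 chromosome 16 genes. The red bars cover all 10 genes, of which 8 have a body of at least 50 kb. Red numbers are the genes counted among the 10, and the red NANOG bar (8 genes) stands beside 67.6% and 79.9% for the other bars.

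The density of peaks in the windows was likewise below or near that of the genome. There were 4.54 NANOG peaks per Mb in the windows and 5.58 per Mb in the genome, so that 15 were seen where the genome density gives 18.4. For OCT4, 2 were seen where it gives 3.15, and for SIM2 sites of at least 2 clones 1 where it gives 1.53. By clone, SIM2 peaks numbered 1 in A6 where it gives 2.97, 0 in B8 where it gives 2.66 and 1 in C4 where it gives 0.785. MED1 and MED12 had 0 peaks, where the genome density gives 0.948 and 1.33. The Mediator lists are sparse, and a lack of peaks in 3.3 Mb is a lack of about 1 peak in each.

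Erg, an ETS family transcription factor gene (chr16:95580776-95808200, minus strand, 227 kb), carried the SIM2 site. The merged site lay at chr16:95765266-95765366, in intron 1 of 11 of an annotated transcript, 42.9 kb downstream of the outermost Erg start and 13.3 kb upstream of the next annotated start of Erg. SIM2 was called there in clones A6 and C4 and not in B8.

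At the Erg site the SIM2 peak of A6 had a score of 34 tags (95% interval 23.5 to 47.5), a normalized tag count of 13.7 and a fold of 9.03. Its total tags were 16.3. The SIM2 peak of C4 had a score of 12 tags (6.2 to 21.0), a normalized tag count of 5.1 and a fold of 5.43. In their own lists these normalized tag counts were at percentiles 73.0 and 59.4. The A6 peak was thus above the middle of its list, whereas the C4 peak equalled the C4 list median of 5.1 and its score was below the C4 median of 13. The B8 list began at a score of 11, and its nearest peak was 4284 kb from the site. The FLAG list of the EB3 line had no peak within 11472 kb of it.

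NANOG and OCT4 occupied the same position in Erg. The NANOG peak (chr16:95765223-95765389) had a score of 28 tags (18.6 to 40.5), a normalized tag count of 10.8 at percentile 80.3 and a fold of 12.91. The OCT4 peak (chr16:95765225-95765411) had a score of 35 tags (24.4 to 48.7), a normalized tag count of 5.4 at percentile 53.0 and a fold of 5.90. Its total tags were 20.4. The centres of all 4 peaks lay close together: relative to the SIM2 peak of A6, the NANOG centre was 7 bp to the left, and the OCT4 and C4 centres were 5 bp and 7 bp to the right. The nearest MED1 and MED12 peaks were 2301 kb and 5455 kb away, so that the site had NANOG and OCT4 without Mediator.

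**Figure D3:**
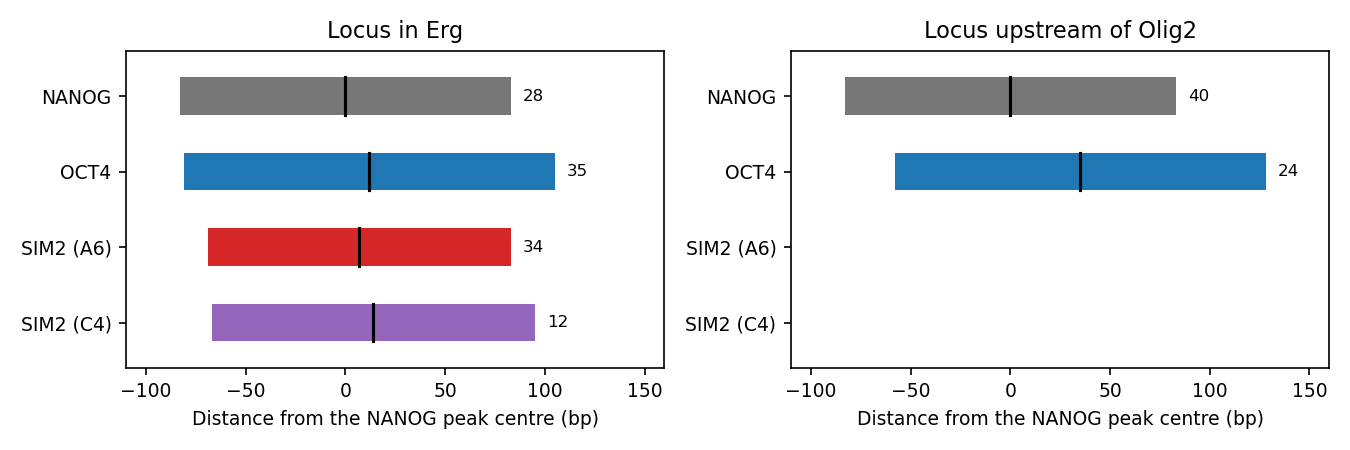
Peak intervals at the locus in Erg and at the locus upstream of Olig2, as distance in bp from the NANOG peak centre (x axis), with 1 row per list. Black lines are peak centres and the numbers are scores in tags. At Erg all 4 lists overlap, with scores of 28, 35, 34 and 12, and at Olig2 only NANOG (40) and OCT4 (24) have a peak.

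Such a combination is a common one among SIM2 sites. Of the 1229 sites of at least 2 clones, 289 (23.5%) had NANOG and OCT4 without MED1 or MED12. NANOG was present at 82.0% of the sites, OCT4 at 46.2%, MED12 at 28.4% and MED1 at 12.0%. The combination of clones was less frequent: 41 of the 1229 sites (3.34%) were called in A6 and C4 only, and 346 (28.2%) in all 3 clones. The 41 sites of A6 and C4 had NANOG at 82.9% and OCT4 at 53.7%. On chromosome 16 there were 33 SIM2 sites in all.

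The Erg sequence printed above had a GC content of 51.0%, and it was repetitive. Stretches of 19 bases occurred in pairs, at bases 30 to 48 and 46 to 64 and again at bases 57 to 75 and 83 to 101, counted from the left end of the peak, and the word catgcg was present 5 times. The SOX-like string ACAAAGG, the reverse complement of CCTTTGT, lay at bases 39 to 45 and 55 to 61, once in each copy of the first pair. The SOX-like strings were added to the search after this sequence had been seen, so finding one here was fixed in advance. Of the 1229 SIM2 sites, 37.0% held a SOX-like string. None of the 5 other motifs searched on both strands (the SIM2 core ACGTG, the octamer ATGCAAA, the KLF element GGGNGTGG, the NANOG-like GCCATNA and the composite SOX-OCT element) was present in the 200 bp around the site centre. How well reads map uniquely in these repeats was not tested.

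Erg had a further NANOG peak upstream, at chr16:95839438-95839604, 31.3 kb from its start, which also lies in the Ets2 window, 84.2 kb from that gene. Its score was 28 tags (18.6 to 40.5), its normalized tag count 9.3 and its fold 12.45, and no other list had a peak there. Both NANOG peaks of Erg were thus above the list medians of 16 tags and 6.2 normalized tags.

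Ets2, the neighbouring ETS family gene (chr16:95923682-95942658, plus strand, 19.0 kb), had 4 NANOG peaks, the one just described included, and none of SIM2, OCT4 or Mediator. The strongest lay at chr16:95988897-95989063, 46.3 kb past the end of the gene, with a score of 35 tags (24.4 to 48.7), a normalized tag count of 11.6 and a fold of 15.67. The peak nearest to the start, at chr16:95917469-95917635 and 6.13 kb upstream, was weak, with a score of 11 tags (5.49 to 19.7), a normalized tag count of 3.9 and a fold of 4.61. The last, 35.1 kb past the end, had the lowest normalized tag count of all 15 NANOG peaks, 2.3 (percentile 1.21). Its score was not low, at 15 tags (8.4 to 24.7), and its fold was 5.53. The SIM2 site in Erg was 158 kb from Ets2 and fell outside its window.

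Olig2, a basic helix-loop-helix gene of the oligodendrocyte and motor neuron lineages (chr16:91225795-91228922, plus strand), had 1 NANOG and 1 OCT4 peak at the same locus, 44.3 kb upstream. The NANOG peak had the highest score of the 15, 40 tags (28.6 to 54.5), with a normalized tag count of 13.9 at percentile 88.0 and a fold of 17.52. The OCT4 peak (chr16:91181404-91181590), with its centre 35 bp away, had a score of 24 tags (15.4 to 35.7) and total tags of 14.0. Its normalized tag count was 3.5 and its fold 4.05. A strong NANOG peak was thus paired with an OCT4 peak at percentile 7.11 of its list. The locus was intergenic, and the nearest start of a protein-coding transcript was that of Gm9881, 9.82 kb away from the NANOG centre. In its sequence, printed above with a GC content of 38.3%, the NANOG-like string TCATGGC, a match on the reverse strand, stood at bases 160 to 166. The nearest SIM2 site was 252 kb from the Olig2 body.

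Sim2 itself (chr16:94086061-94347498, plus strand) had no peak of any list in its body in the annotation used, which gives it 1 transcript of 261 kb. A pair of NANOG peaks lay in its window, the second of them, described with Hlcs, only because the annotated body reaches so far, since it lies 306 kb from the start. The first, at chr16:94003983-94004149, was 82.0 kb upstream, in an intron of the claudin gene Cldn14, and had a score of 17 tags (9.9 to 27.2), a normalized tag count of 6.2 and a fold of 7.38, about the list medians. Its sequence, with a GC content of 38.9%, contained the palindrome CACGTG at bases 112 to 117, which holds the core ACGTG on both strands. The search matched the core letters only, without flanking bases, so it cannot tell a SIM2 element from another that holds them. SIM2 was not called there in any clone. The nearest SIM2 site of at least 2 clones was 1418 kb from the Sim2 body, farther than for any other of the 10 genes, and 73.7% of protein-coding genes with a site on their chromosome had a nearer one.

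Runx1, which encodes a runt domain factor of blood formation (chr16:92601712-92826311, minus strand, 225 kb), had no peak in its window. The nearest peak was one of NANOG, 180 kb away. The gene lay inside a stretch of 1008 kb without a peak of any list, between peak centres at 91998313 and 93006413 of chromosome 16. Together with Dyrk1a it is 1 of 2 genes without any peak, and 29.4% of all protein-coding genes had none. Both have a body of at least 50 kb, as 2 of 8 such members (25.0%), and 17.7% of all long genes had none.

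Among the enzyme genes, Hlcs encodes holocarboxylase synthetase, which joins biotin to carboxylases. Its body (chr16:94350488-94535170, minus strand, 185 kb) had a NANOG peak in intron 6 of 10, at chr16:94391928-94392094, which lies 44.5 kb past the end of Sim2 and is the other NANOG peak of the Sim2 window. The score was 14 tags (7.65 to 23.5), the normalized tag count 5.4 and the fold 5.99. The second NANOG peak of Hlcs, at chr16:94545460-94545626, was 10.4 kb upstream of it and 46.7 kb from Ttc3, with a score of 11 tags (5.49 to 19.7), a normalized tag count of 3.9 and a fold of 5.07. Both were below the list medians. The nearest start of a protein-coding transcript to the second was that of Ripply3, 4.48 kb away.

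Ttc3, which encodes a ubiquitin ligase with tetratricopeptide repeats (chr16:94592225-94690829, plus strand, 98.6 kb), had no other peak than the one it shared with Hlcs. Dyrk1a, which encodes a dual-specificity kinase known for its dosage effect on brain growth (chr16:94791617-94917124, plus strand, 126 kb), had none. The peak nearest to Dyrk1a was a NANOG peak 160 kb away. The nearest SIM2 sites were 1074 kb from Ttc3, 848 kb from Dyrk1a and 1230 kb from Hlcs.

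Kcnj6 encodes a subunit of G protein-gated potassium channels (chr16:94970873-95219303, minus strand, 248 kb). Its only peak was one of NANOG at chr16:95076757-95076923, in intron 2 of 4, 1.46 kb from an inner annotated start. The score was 15 tags (8.4 to 24.7), the normalized tag count 3.1 and the fold 4.99. It was the only one of the 15 NANOG peaks with an input count above the lowest value of 2.2 that the list assigns, at 2.8. From this peak to the Erg site, 688 kb of chromosome 16 had no peak of any list.

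Dscam, an immunoglobulin superfamily adhesion gene of neurons (chr16:96813686-97392359, minus strand), had 5 NANOG peaks and no other. The strongest, at chr16:97387828-97387994, lay in the first intron, 4.45 kb from the start of the gene, with a score of 18 tags (10.7 to 28.4), a normalized tag count of 7.0 and a fold of 8.30. A peak at chr16:97168469-97168635, in intron 3 of 32, had a score of 14 tags (7.65 to 23.5), a normalized tag count of 5.4 and a fold of 5.99. The peak at chr16:97456654-97456820, 64.4 kb upstream, had a score of 15 tags (8.4 to 24.7), a normalized tag count of 5.4 and a fold of 6.45. The other peaks, 1 in the first intron and 1 beyond the end of the gene, had scores of 10 and 11 and normalized tag counts of 3.9 and 4.6. Dscam had the most peaks of the 10 genes and also the longest window, 779 kb.

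Across the 15 NANOG peaks the score ranged from 10 to 40 with a median of 15, and the median of the whole list was 16. The normalized tag count had a median of 5.4, where the list median was 6.2, and 5 of the 15 were above the list median. The fold ranged from 4.61 to 17.52 with a median of 5.99, where the list median was 6.91. The share of the whole list that reached a fold of 8 is not given here. Of the 15, 5 did: those at Olig2, in Erg, upstream of Erg, past the end of Ets2 and in the first intron of Dscam. These 5 lie near 4 genes. The intervals of the scores of the other 10 overlapped the list median of 16, as did that of the Dscam peak among the 5. NANOG peaks near the 10 genes had OCT4 within 100 bp in 2 of 15 cases (13.3%), and all NANOG peaks in 16.2%. Conversely both OCT4 peaks had NANOG, as did 94.6% of the whole OCT4 list.

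**Figure D4:**
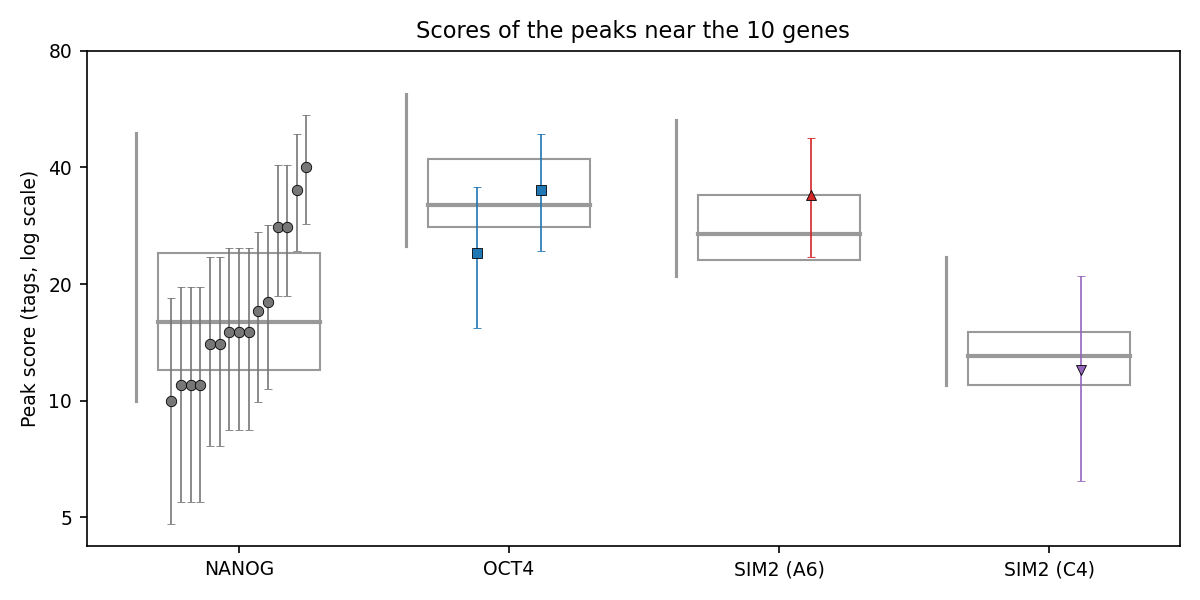
Scores in tags (y axis, log scale) of the 19 peaks near the 10 genes by list, as symbols with exact 95% Poisson intervals. For A6 and OCT4 the intervals hold only if the score is a tag number. Boxes give the quartiles and median of each whole list and the grey lines at their left the range from the 5th to the 95th percentile. The NANOG scores range from 10 to 40 around the list median of 16, and the OCT4 peak of 24 lies below its box.

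No peak of the 19 lay in an exon: 10 were intronic and 9 intergenic. The intronic ones include the peaks of 4 lists at the Erg position, and the intergenic ones those of 2 lists at the Olig2 locus. Of the 15 NANOG peaks, 7 were intronic and 8 intergenic. Within 200 bp around their centres, the core ACGTG was present in 1 of the 15 NANOG peaks (6.67%), and in 5.41% of all NANOG peaks. The octamer ATGCAAA was present in 4 (26.7%, against 13.9% of all), as was the NANOG-like GCCATNA (26.7%, against 8.28%), the KLF element GGGNGTGG in 2 (13.3%, against 8.68%) and the composite SOX-OCT element in none (against 1.35%). SOX-like strings, which were CCATTGT with its variant CTATTGT and likewise CCTTTGT with its variant CTTTTGT on both strands, were present in 3 (20.0%, against 39.1%). At these counts a difference of a few peaks sets the share. Over the 1229 SIM2 sites, 14.1% held ACGTG and 37.0% a SOX-like string. Exact matches describe the letters only, and the motifs may overlap each other.

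The window of 100 kb cut between nearby peaks at few genes. The peaks just inside it were those of NANOG 84.2 kb from Ets2 and 82.0 kb from Sim2, and the nearest one outside it was 109 kb from Erg. Next came the Erg site, 158 kb from Ets2, and the NANOG peaks 160 kb from Dyrk1a and 180 kb from Runx1. The distance to the nearest SIM2 site of at least 2 clones had a median of 948 kb over the 10 genes and of 649 kb over all protein-coding genes.

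**Figure D5:**
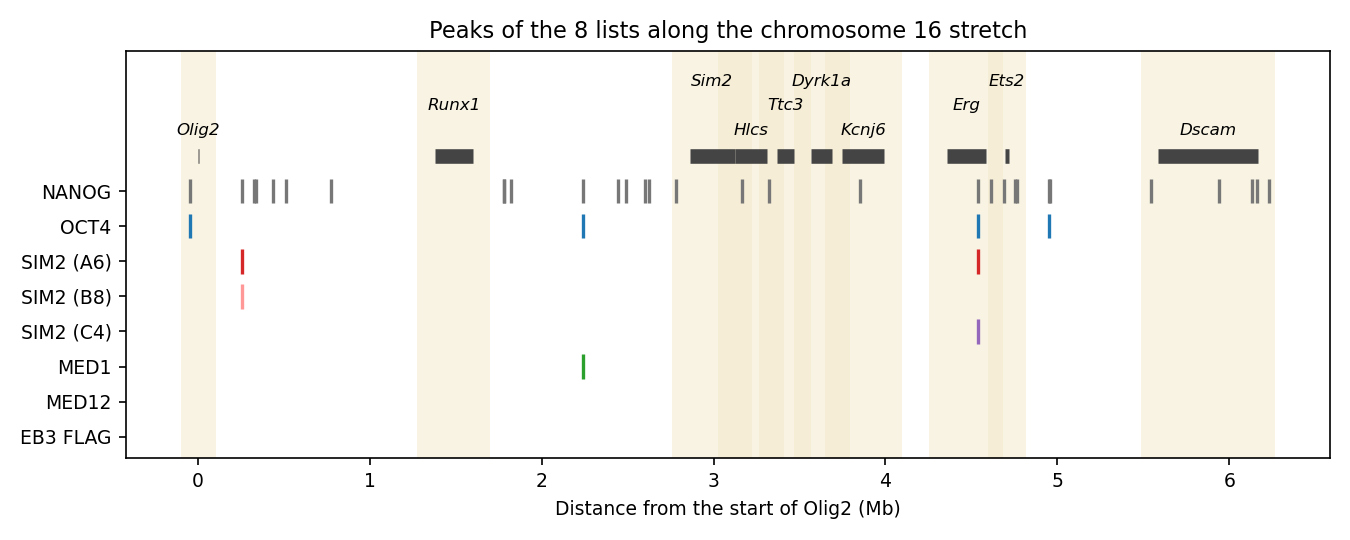
Peaks of the 8 lists (rows) along the 6.37 Mb that hold the 10 genes, as distance in Mb from the start of Olig2 (x axis). Dark bars are gene bodies, shaded bands the windows of 100 kb on each side and vertical ticks the peaks. The MED12 and EB3 rows are empty, MED1 has 1 tick outside the windows, and the widest empty stretch holds Runx1.

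Of a list of 40 other genes of this chromosome 16 region, set by known roles, 30 (75.0%) had a NANOG peak within 100 kb, where 67.6% of all protein-coding genes had one. An OCT4 peak was near 8 (21.8% of all genes), a MED12 peak near 3 (10.9%) and a MED1 peak near 1 (7.98%). SIM2 peaks of any clone were near 10 of the 40, where the background over all genes was 28.7%, and 36.9% for long genes. They were Gabpa, an ETS family gene; Ncam2, Tiam1 and Cxadr of the adhesion and neuronal group; Hunk, Ifnar1, Ifnar2, Ifngr2 and Il10rb of the signalling and immune group; and Sod1, the superoxide dismutase gene. Near Ncam2 the SIM2 peak was of A6 only and near Tiam1 of B8 only, whereas the other named genes had peaks of more than 1 clone. Several of the named genes share peaks, as neighbours. Ifnar1, Ifnar2, Ifngr2 and Il10rb, all receptor subunits of interferons and interleukins, lie around 1 locus. Hunk and Sod1 are neighbours as well. Of the 11 genes of transcription and chromatin, 9 had a NANOG peak and 1, Gabpa, a SIM2 peak (28.7% of all genes). Of the 9 neuronal, adhesion and synapse genes, 7 had a NANOG peak. Both NANOG counts stand near the 67.6% of all genes.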

How the data were processed

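The authors mapped single-end reads to mm9 with BWA, removed duplicate reads and called peaks with HOMER for each library against its input (versions are not given in the sources used here). The deposited lists give per peak a normalized tag count (a signal scaled by the authors to 10 M tags), a score, the total tags (whole counts deposited for 5 lists, not whole in A6, EB3 and OCT4) and the fold over input, a ratio that the authors' HOMER run computed. Turned into tags by the depth that its steps give, the normalized tag count was about 0.5 times the score, except in A6 (0.97) and EB3 (0.996). The lists do not give the cause, and the depth is therefore uncertain by about a factor of 2. Most peaks carry the lowest input value of their list (93.9% of NANOG peaks), which limits what the fold can show.

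Here peaks were assigned to genes by their centre. SIM2 peaks of the clones were merged where centres lay within 100 bp, sites with an EB3 peak were removed and those of at least 2 clones kept. A factor was counted within 100 bp of a 100 bp site, as windowBed does. Python 3.11.15, numpy 2.4.6, pandas 2.3.3, scipy 1.17.1, matplotlib 3.10.9 and bedtools 2.31.1 were used. The steps were tested on simulated data, in which 200 of 200 gene windows and 251 of 251 planted sites were recovered. The 10 genes, the 40 other genes and the motifs were chosen with earlier results of these data known, and no test was run on them. All SIM2, OCT4 and Mediator peaks near the 10 genes are named, and of NANOG peaks the 3 with the highest normalized tag count at each gene. The lowest NANOG peak, the remaining Dscam peaks and the distance of 300 bp that joins peaks into a locus were chosen after the values were seen. The SOX-like strings were chosen after the Erg sequence was seen.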

Additional observations from a re-analysis of the deposited data

How the results depend on the processing

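Of 59 values recomputed under other settings, 47 stayed within 1.5 times the reported one. With peaks of at least 8 times the input only, NANOG peaks fell from 15 to 5 near 4 genes, OCT4 peaks from 2 to 0 near 0 genes, SIM2 peaks from 2 to 1, all peaks from 19 to 6 near 4 genes, SIM2 sites of at least 2 clones from 1 to 0, and the factors at the Erg site from 2 to 1, because fewer peaks enter. Within 200 kb, SIM2 peaks were near 2 genes in place of 1, as the Ets2 window then reaches the Erg site, and all 10 genes had a NANOG peak. The share of all protein-coding genes was not recomputed for 200 kb or for a fold of 8. The gene counts at these settings thus have no background and say nothing about the 10 genes as a set. Leaving out 1 clone in turn gave 0 to 1 SIM2 sites near the 10 genes: 0 without A6, 0 without C4 and 1 without B8, so the Erg site rests on A6 and C4. MED1 and MED12 peaks stayed at 0 under all 5 settings for the peaks. With all annotated genes in place of protein-coding ones the share with a NANOG peak was 64.0%. No paired analysis was possible because no result comes from a test: the factors were measured in clone A6 only, so that they share a single replicate number, 1, with the SIM2 ChIP, and the inputs have no peak list. Each factor list is 1 library of 1 clone, so its spread between replicates is not known.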

Other observations

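Outside the windows, the same stretch of chromosome 16 held 3 other loci where peaks of several lists lay within 300 bp of each other. Near Ifnar1, the interferon receptor subunit gene, a SIM2 site of A6 and B8 with NANOG lay 4496 bp upstream of the start. The score there was 21 tags in A6, 12 in B8 and 22 for NANOG, and the fold was 5.93, 4.68 and 10.14. It is the second SIM2 site of the stretch, and here C4 was the clone without a peak, in place of B8 as at Erg.

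The nearest start of a protein-coding transcript to the second locus was that of Setd4, 140130 bp away. NANOG (score 33), OCT4 (38) and MED1 (15) lay there together, and this MED1 peak, with a fold of 4.41, was the only Mediator peak of the 6.37 Mb. At the third locus, where the nearest protein-coding start was that of the proteasome assembly gene Psmg1, OCT4 (score 33) and NANOG (37) coincided without SIM2. Of the 54 protein-coding genes in the stretch, 37 (68.5%) had a NANOG peak within 100 kb, where 67.6% of all protein-coding genes had one. An OCT4 peak was near 6 (11.1%, against 21.8%), a SIM2 peak of any clone near 6 (11.1%, against 28.7%) and a MED1 or MED12 peak near 0 (against 7.98% and 10.9%). Neighbouring genes share peaks, and these differences were not tested.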
